A study of Mus musculus with 12 samples.

Results

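The collagen and laminin genes of the postnatal mouse kidney were followed in 2 mouse models of the Lin28/*let-7* axis. All gene symbols made of Col, a type number, the letter a and a chain number, or of Lama, Lamb or Lamc and a digit, were taken from the count files. Of 24062 symbols, 55 had such a name, and the 54 that reached at least 10 counts in at least 3 kidneys were kept. *Col10a1*, which reached 10 counts in 1 kidney, was left out. The 54 members were divided into 17 basement membrane genes, which are the 6 collagen IV chains and 11 laminin chains, and 37 other collagens. The latter comprised 11 fibrillar collagens, 8 network and beaded collagens, 9 fibril-associated collagens, 4 transmembrane collagens, 2 multiplexins and 3 collagens of other types.

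RNA of 12 whole kidneys at postnatal day 3 had been sequenced, in 4 groups of 3 kidneys. *LIN28B* Wt1 kidneys (C57BL/6) carried a human *LIN28B* transgene under a doxycycline-responsive promoter, an allele named *Col1a-TRE-LIN28B*, together with *lox-STOP-lox-rtTA* and a *Wt1-Cre* driver, so that induction was restricted to cells of the *Wt1-Cre* lineage. Their controls were littermates labelled wild type on C57BL/6. The *let-7* KO kidneys lacked *let-7a1*, *let-7d* and *let-7f1* constitutively, in every cell, on a mixed CD1 and C57BL/6 background, and their controls were wild-type littermates of the same mixed background. The labels do not give the alleles or the doxycycline treatment of the *LIN28B* controls, nor the day of induction of the sequenced kidneys. Each group held 2 kidneys of one litter and 1 kidney of another, and strain and experiment cannot be told apart between the 2 control groups.

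Basement membranes are sheets of collagen IV and laminin networks joined by nidogens and perlecan, and they line every tubule, glomerulus and vessel of the kidney. *Col4a1* and *Col4a2* encode the chains found in nearly all basement membranes, whereas *Col4a3*, *Col4a4* and *Col4a5* encode the chains of the mature glomerular basement membrane, whose loss causes Alport syndrome. Laminins are trimers of an alpha, a beta and a gamma chain, and during glomerular maturation *Lama1* and *Lamb1* give way to *Lama5* and *Lamb2*. Fibrillar collagens, led by *Col1a1*, *Col1a2* and *Col3a1*, are made by stromal cells. Mature *let-7* miRNAs lower mRNAs whose 3′ UTRs pair with the miRNA seed, and Lin28 proteins block *let-7* maturation.

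Total counts per kidney ranged from 39926235 to 61872736, and 3 counts corresponded to 0.0485 to 0.0751 CPM (counts scaled to a common library size). The members took 0.794 to 0.892% of all counts in the *LIN28B* controls and 0.546 to 0.754% in *LIN28B* Wt1 kidneys. They took 0.687 to 0.856% in *let-7* wild type and 0.58 to 0.806% in *let-7* KO. The human transgene has no row in the files. The mouse *Lin28b* row held 0, 18 and 33 counts in the *LIN28B* controls and 232, 224 and 71 in *LIN28B* Wt1 kidneys. By qRT-PCR, the paper saw endogenous *Lin28b* mRNA unchanged between such kidneys and littermate controls. The source of the counts in this row was not tested. The miRNA row *Mirlet7d* held 0, 19 and 35 counts in *let-7* wild type and 0 in each *let-7* KO kidney. CPM values below are scaled by trimmed mean of M values (TMM) factors over the 12 kidneys.

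Per transcript length, *Col3a1* was the most abundant member in the 6 control kidneys, at 292 ± 51.5 RPKM (CPM per kilobase of the longest transcript; mean ± SD over the 6 kidneys). *Col4a1* followed at 187 ± 22.6 RPKM, *Col1a2* at 159 ± 24.5 RPKM, *Col1a1* at 117 ± 19.5 RPKM and *Col4a2* at 100 ± 7.34 RPKM. *Col18a1*, a multiplexin of basement membrane zones, came next at 89.5 ± 8.13 RPKM. From *Col4a1* down, the range of each of these over the 6 kidneys overlapped that of its neighbour in this order. Within kidneys, *Col1a2*, with the shorter transcript, was above *Col1a1* in each of the 6. The log2 ratio of CPM, *Col1a1* over *Col1a2*, ran from -0.38 to -0.14. The order of the other neighbours within kidneys was not looked at. The chains of the mature glomerular basement membrane were far lower. *Col4a5* was at 10.7 ± 1.67 RPKM, *Col4a3* at 7.29 ± 2.05 RPKM and *Col4a4* at 3.90 ± 0.915 RPKM. Among laminins, *Lamb1* led with 61.7 ± 9.74 RPKM, and *Lamc1* had 34.7 ± 6.39 RPKM. *Lamb2* reached 14.1 ± 2.44 RPKM, while *Lama1*, at 6.73 ± 0.909 RPKM, and *Lama5*, at 5.94 ± 1.60 RPKM, overlapped. These are levels in whole kidneys, where fewer cells of a type and less RNA per cell cannot be told apart.

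The first comparison asks how the matrix genes of *LIN28B* Wt1 kidneys differ from those of control littermates. Collagen IV chains were lower. *Col4a1* fell by 41.5%, *Col4a2* fell by 39.7% and *Col4a3* fell by 55.0%, and no kidney of one group entered the range of the other for these chains. Collagen VI chains *Col6a1* and *Col6a2* and the laminin chain *Lama2* also fell, while *Col2a1* rose. Of 50 members tested, 6 were lower at p below 0.01, against 4.08% of all 15793 genes tested, and 1 was higher, against 3.25% of all genes. Without the third *LIN28B* Wt1 kidney 19 members were called, but the share of all genes called in that fit was not taken. At an edgeR adjusted p below 0.05, 3 members were lower, all of them collagen IV chains, against 0.766% of all genes tested. DESeq2 gave 8 members an adjusted p below 0.05. Beside the collagen IV chains these were *Col6a1*, *Col6a2*, *Col6a5* and *Lama2*, all lower, and *Col2a1*, higher. *Col6a5* was kept as a member only through its counts in these controls, so its lower level is not read as a result. The share of all genes was not taken for DESeq2.

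*Col4a1* stood at 1226, 1254 and 1095 CPM in the 3 controls and at 672, 668 and 748 CPM in the 3 *LIN28B* Wt1 kidneys. The group means were 1191 ± 84.7 and 696 ± 45.0 CPM (SD, n = 3). The log2 fold change was -0.77 ± 0.12 (SE), with an adjusted p of 0.0178 in the edgeR quasi-likelihood test. *Col4a2* stood at 641, 664 and 622 CPM in controls and at 365, 360.2 and 435 CPM in *LIN28B* Wt1 kidneys. Its log2 fold change was -0.73 ± 0.13 (edgeR, adjusted p = 0.0297). Both chains are secreted as one trimer, and in both the *LIN28B* Wt1 kidney of the second litter was the one closest to the controls.

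The 2 genes lie head to head on chromosome 8 of GRCm38, *Col4a1* at chr8:11198423-11312826 on the minus strand and *Col4a2* at chr8:11312805-11449287 on the plus strand, with starts 21 bases apart, so that the genes overlap there, and whether counting used strand is not given in the sources used here. Their promoter windows, from 250 bases before to 50 bases after the RefSeq start (GRCm38.p6), are shown because the 2 members moved together. The windows are chr8:11312777-11313076 for *Col4a1* and chr8:11312555-11312854 for *Col4a2*, each written 5′ to 3′ on the strand of its gene. They share chr8:11312777-11312854, so the CCGCCC marked in *Col4a1* and the last GGGCGG marked in *Col4a2* are the same site on opposite strands. Capitals mark CCAAT boxes (CCAAT, or ATTGG on the other strand) and GC boxes (GGGCGG, or CCGCCC on the other strand).
Col4a1: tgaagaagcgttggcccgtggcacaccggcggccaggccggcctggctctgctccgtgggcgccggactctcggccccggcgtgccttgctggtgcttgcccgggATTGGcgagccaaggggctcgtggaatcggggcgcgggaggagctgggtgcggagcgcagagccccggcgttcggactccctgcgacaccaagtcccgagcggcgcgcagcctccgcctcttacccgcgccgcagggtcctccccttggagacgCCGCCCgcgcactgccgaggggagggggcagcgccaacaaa
Col4a2: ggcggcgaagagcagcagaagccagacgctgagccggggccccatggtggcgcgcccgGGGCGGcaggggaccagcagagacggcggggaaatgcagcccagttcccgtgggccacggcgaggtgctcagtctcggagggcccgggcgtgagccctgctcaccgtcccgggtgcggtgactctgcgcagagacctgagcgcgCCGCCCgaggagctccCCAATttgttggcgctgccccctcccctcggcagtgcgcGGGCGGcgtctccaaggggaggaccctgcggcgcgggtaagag
Neither window held TATAAA on either strand. Of 27025 promoters in the table, 37.9% held a CCAAT box, 35.9% a GC box and 14.2% TATAAA. Of the 39 members with a promoter there, 13 held a CCAAT box, 25 a GC box and 4 TATAAA.

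*Col4a3*, whose product assembles with those of *Col4a4* and *Col4a5* in podocytes, stood at 57.03, 64.4 and 49.2 CPM in controls and at 29.1, 22.5 and 25.02 CPM in *LIN28B* Wt1 kidneys. Its log2 fold change was -1.15 ± 0.18 (edgeR, adjusted p = 0.0212). *Col4a3* and *Col4a4* also lie head to head, on chromosome 1, with starts 72 bases apart, and *Col4a5* and *Col4a6* do so on the X chromosome, with starts 1309 bases apart. *Col4a4* had 43.2, 27.9 and 45.5 CPM in controls against 28.8, 29.4 and 13.6 CPM, with overlapping groups and a log2 fold change of -0.70 ± 0.31 (adjusted p = 0.268). *Col4a5* had 72.3, 55.8 and 60.9 CPM against 18.2, 39.1 and 51.7 CPM, without overlap, and a log2 fold change of -0.79 ± 0.33 (adjusted p = 0.239). *Col4a6*, a chain of specialised basement membranes, gave -1.43 ± 0.50 (adjusted p = 0.175), also without overlap. The log2 ratio of *Col4a3*, *Col4a4* and *Col4a5* together over *Col4a1* and *Col4a2* together was -3.53 ± 0.142 in controls and -3.66 ± 0.143 in *LIN28B* Wt1 kidneys, and the kidneys overlapped.

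Among the laminins, *Lama2*, the alpha chain of laminins best known from muscle, fell by 42.7%. Its levels were 19.3, 27.8 and 24.4 CPM in controls and 15.1, 11.7 and 14.01 CPM in *LIN28B* Wt1 kidneys, with a log2 fold change of -0.80 ± 0.23 (adjusted p = 0.111). No other laminin passed p below 0.01. *Lama1* differed least, with 74.7, 67.7 and 54.6 CPM against 56.3, 64.2 and 72.1 CPM and a log2 fold change of -0.03 ± 0.18. *Lama5* had 64.4, 50.1 and 68.3 CPM against 61.9, 42.3 and 56.5 CPM, a log2 fold change of -0.18 ± 0.20. Neither alpha chain of the glomerular switch separated the groups.

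*Lamb1* had 379, 427 and 324 CPM in controls against 313, 281 and 328 CPM in *LIN28B* Wt1 kidneys, with a log2 fold change of -0.29 ± 0.14 (adjusted p = 0.323). *Lamb2* had 77.7, 83.1 and 79.1 CPM against 60.4, 60.2 and 67.2 CPM, without overlap, and a log2 fold change of -0.35 ± 0.14 (adjusted p = 0.228). Both beta chains were therefore slightly lower in value, and their log2 ratio, *Lamb2* over *Lamb1*, overlapped between the groups at -2.23 ± 0.172 and -2.30 ± 0.0749. *Lamc1*, the gamma chain of most kidney laminins, gave -0.48 ± 0.20 (adjusted p = 0.254), *Lama4*, a chain of vessel walls, -0.41 ± 0.19 (adjusted p = 0.307), and *Lama3* -1.48 ± 0.64 (adjusted p = 0.262).

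All 17 basement membrane members had a log2 fold change below 0, also with RLE or upper-quartile factors and in DESeq2, with a median of -0.70, against a median of -0.02 over all 15793 genes tested. The other 33 collagens tested had a median of -0.14, with 18 below 0 and 15 above. In the plot of fold changes of collagen IV and laminin chains, the collagen IV chains sat together, between -1.43 and -0.70, and the laminins spread from -1.48 to -0.03.

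**Figure D1:**
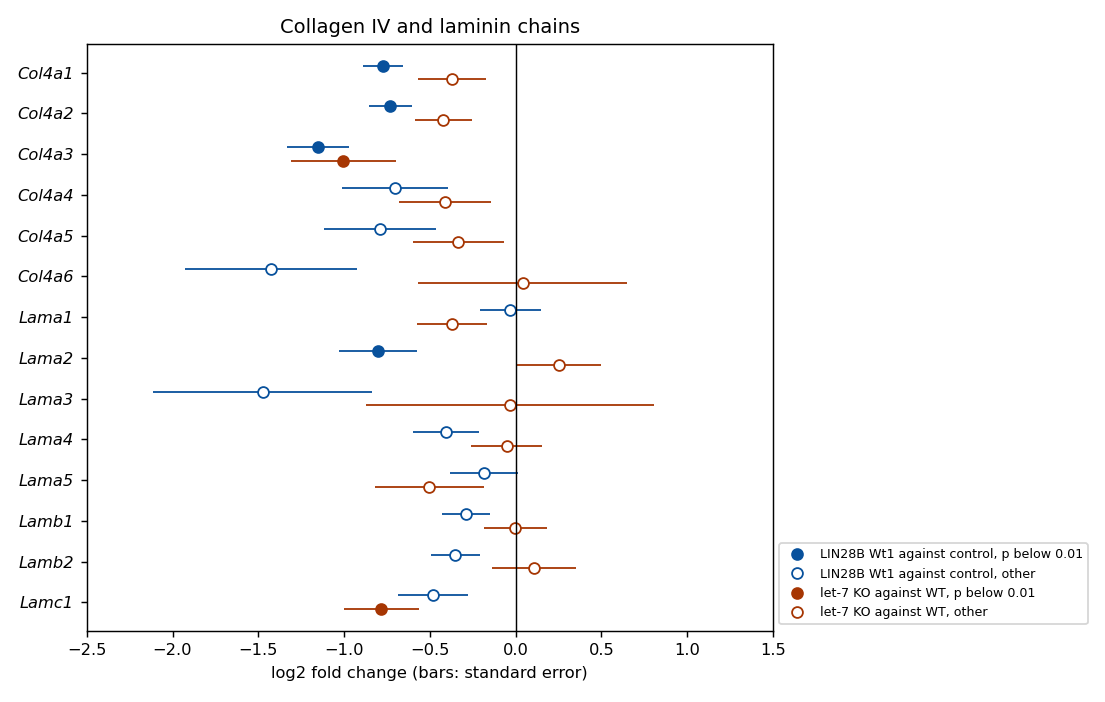
Log2 fold change of the 6 collagen IV and 8 laminin chains described in the text, in *LIN28B* Wt1 against control kidneys (blue) and in *let-7* KO against wild-type kidneys (brown), with standard errors as bars and filled points where p was below 0.01. All 14 blue points lie left of 0, and 11 of the 14 brown points do.

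Collagen VI forms beaded filaments beside basement membranes from *Col6a1*, *Col6a2* and another chain such as *Col6a3*. *Col6a1* stood at 195, 206 and 205 CPM in controls and at 104, 92.5 and 139 CPM in *LIN28B* Wt1 kidneys. It fell by 44.4%, with a log2 fold change of -0.85 ± 0.17 (adjusted p = 0.0503). *Col6a2* stood at 135, 155 and 145 CPM against 104, 101 and 98.1 CPM, a log2 fold change of -0.52 ± 0.13 (adjusted p = 0.0796). *Col6a3* had 61.9, 72.8 and 78.2 CPM against 47.8, 47.4 and 55.2 CPM, without overlap, but did not pass p below 0.01 (log2 fold change -0.50 ± 0.16, adjusted p = 0.148). *Col6a5* had 93, 29 and 44 counts in controls and 0, 0 and 6 counts in *LIN28B* Wt1 kidneys (adjusted p = 0.156), and *Col6a4* had 85, 62 and 123 counts against 1, 34 and 63 counts (adjusted p = 0.53). The count minimum was met for *Col6a5* only in these control kidneys, so its lower counts elsewhere follow from how members were kept. The 7 network and beaded collagens tested, *Col6a5* among them, all had log2 fold changes below 0.

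The fibrillar collagens did not move as a block. *Col2a1*, best known as the collagen of cartilage, stood at 26.6, 14.7 and 26.3 CPM in controls and at 61.2, 42.6 and 70.8 CPM in *LIN28B* Wt1 kidneys, where all 3 kidneys were higher. Its log2 fold change was 1.37 ± 0.28 (adjusted p = 0.0503). The summed level of 5 cartilage markers was 2.61 to 3.39 CPM in controls and 1.14 to 6.73 CPM in *LIN28B* Wt1 kidneys, with *Matn1* at 0 counts in every kidney. *Col1a1* had 703, 796 and 793 CPM against 786, 720.3 and 845 CPM, a log2 fold change of 0.04 ± 0.12. *Col1a2* gave -0.31 ± 0.12 (adjusted p = 0.222) and *Col3a1* -0.50 ± 0.18 (adjusted p = 0.181).

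*Col1a1* and *Col1a2* encode the chains of 1 trimer, and their ratio differed between the groups in every kidney. The log2 ratio of *Col1a1* over *Col1a2* was -0.38, -0.30 and -0.14 in controls and 0.07, 0.12 and 0.05 in *LIN28B* Wt1 kidneys, without overlap. The transgenic allele is named for the collagen I locus, and its part in this ratio was not tested. The type IX collagens, fibril-associated collagens found with *Col2a1* in cartilage, had higher mean levels, with log2 fold changes of 1.03 ± 0.56 for *Col9a1*, 0.63 ± 0.42 for *Col9a2* and 0.97 ± 0.34 for *Col9a3*, none at p below 0.01. *Col20a1* had 13, 7 and 7 counts in controls and 107, 42 and 73 counts in *LIN28B* Wt1 kidneys (adjusted p = 0.169).

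In 17 of the 50 members tested, all 3 *LIN28B* Wt1 kidneys lay below all 3 controls, against 13.5% of all genes tested, and 8 of these were among the 17 basement membrane members. The members that lay below include *Col6a5*, which was kept only through its counts in the controls. In 4 members, *Col2a1*, *Col9a3*, *Col20a1* and *Col25a1*, they lay above, against 10.3% of all genes.

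**Figure D2:**
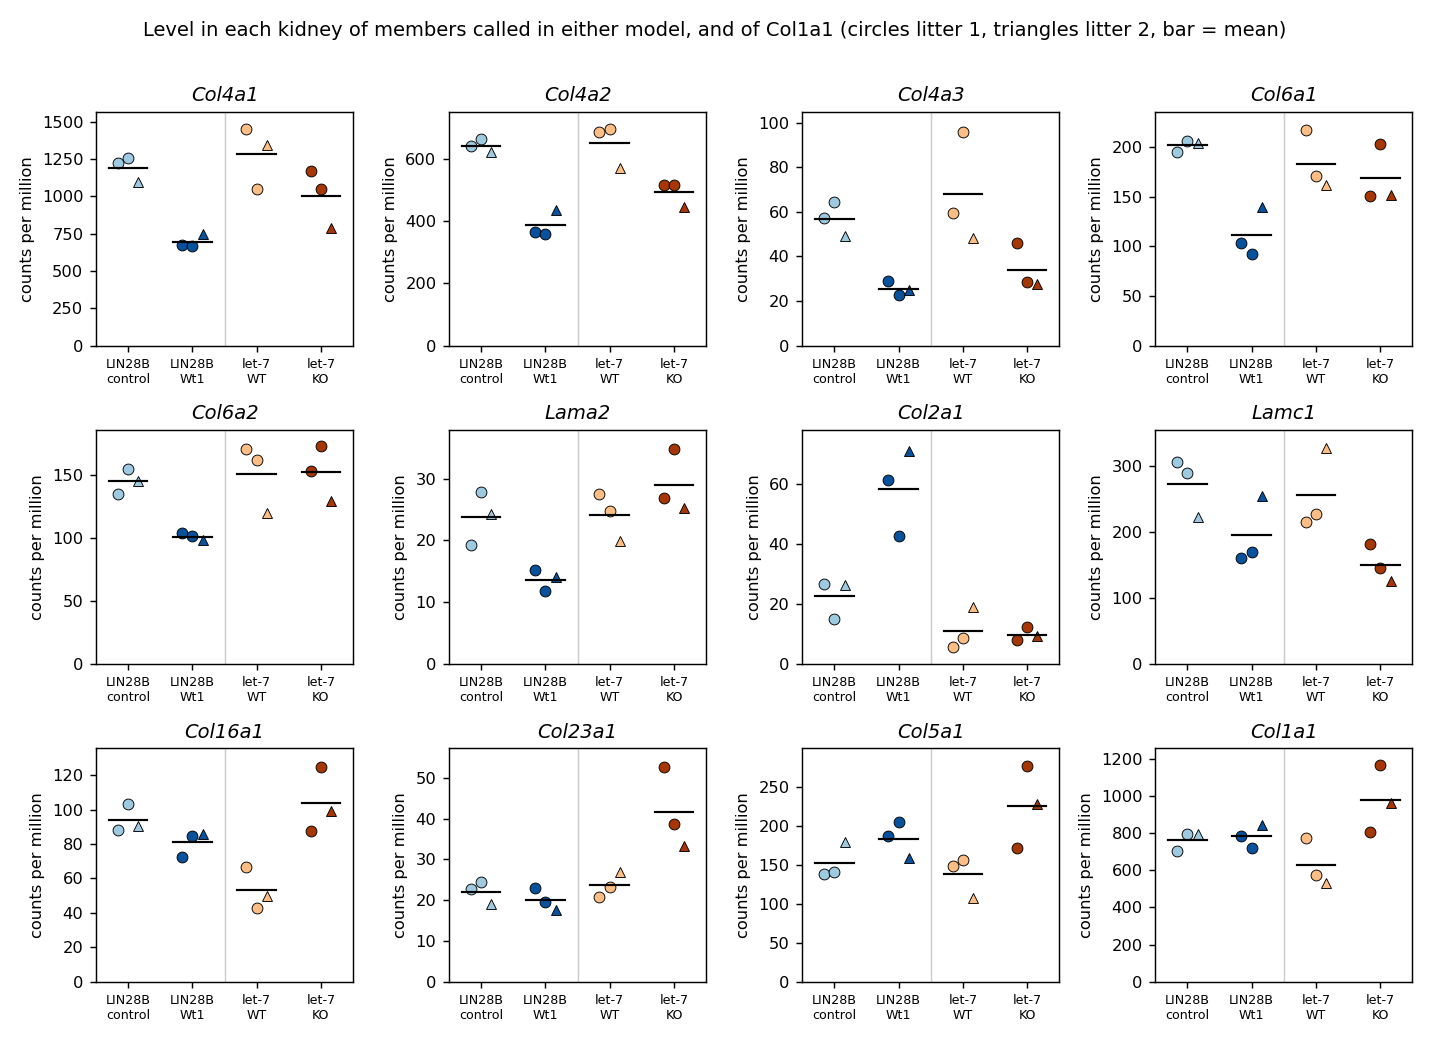
CPM in each of the 12 kidneys for the 11 members called in either model and for *Col1a1*, with circles for the first litter of each group, triangles for the second and bars for the mean of 3 kidneys. *Col4a1*, *Col4a2* and *Col6a1* are separated between *LIN28B* control and *LIN28B* Wt1 kidneys, and *Col16a1* between *let-7* wild-type and KO kidneys.

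Genes that act with the collagens and laminins were read from 6 lists. In all, 11 of 97 tested were lower at p below 0.01 in *LIN28B* Wt1 kidneys, against 4.08% of all genes, and *Postn* alone of the 11 had an edgeR adjusted p below 0.05 (0.0311). Of 20 genes listed as basement membrane partners, 4 fell in *LIN28B* Wt1 kidneys. These were the linker *Nid1* (log2 fold change -0.62), the integrin ligand *Npnt* (-0.68), *Tinag* of tubular basement membranes (-0.76) and the proteoglycan *Bgn* (-0.41). Of 15 receptors tested, the collagen receptor subunit *Itga1* (-0.84) and the tetraspanin *Cd151* (-0.84) fell. Of 18 genes of collagen modification and folding, the prolyl hydroxylase *Leprel1* (-1.17) fell, and of 13 procollagen processing and cross-linking genes the transglutaminase *Tgm2* (-0.71) fell. Of 16 fibrillar matrix partners *Postn* (-1.33) fell, and of 15 matrix degradation genes the protease inhibitors *Timp2* (-0.61) and *Timp3* (-0.70) fell. The medians of the 6 lists lay between -0.45 and -0.03.

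Markers of several cell types differed between the same kidneys. The summed level of 8 endothelial markers was 499.8 to 568 CPM in controls and 348 to 375 CPM in *LIN28B* Wt1 kidneys, with 4 of the 8 lower at p below 0.01. The sum of 8 stromal markers, of which *Dcn* held the most counts, was 589 to 670.4 CPM against 479 to 554 CPM. The median log2 fold change of the 8 was 0.03, with *Pdgfra* (-0.69) and *Pdgfrb* (-0.81) lower and *Ntn1* (0.60) higher at p below 0.01. The sum of 5 proximal tubule markers was 1820 to 1878 CPM against 809.5 to 1047 CPM. The sum of 4 immune markers was 59.7 to 64.2 CPM against 33.5 to 42.5 CPM. The 6 cap mesenchyme markers summed to 50.8 to 64.4 CPM in controls and 276 to 339 CPM in *LIN28B* Wt1 kidneys, with all 5 that were tested higher. The 7 podocyte markers summed to 1365 to 1657 CPM in controls and 1528 to 2691 CPM in *LIN28B* Wt1 kidneys. *Cdkn1c* was the podocyte marker past p below 0.01, higher in *LIN28B* Wt1, and the median log2 fold change of the 7 was 0.01. Smooth muscle markers (4 genes, 642 to 729.6 against 477 to 649 CPM) and ureteric tip and collecting duct markers (6 genes, 1707 to 2025 against 1311 to 1739 CPM) overlapped in their sums. Within these lists, smooth muscle *Myh11* (-0.92) and ureteric *Calb1* (-0.73) were lower and ureteric *Ret* (1.47) was higher at p below 0.01. The 4 adrenal markers summed to 1.70 to 2.49 against 3.51 to 4.90 CPM. The part of these markers in the fold changes of collagens and laminins was not tested.

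The same question was asked of *let-7* KO kidneys against their wild-type littermates. *Col4a3* and *Lamc1* were lower and *Col16a1*, *Col23a1* and *Col5a1* were higher. Of 49 members tested, 2 were lower at p below 0.01, against 1.63% of all 15500 genes tested, and 3 were higher, against 1.10% of all genes. No member reached an adjusted p below 0.05 in edgeR, where 0.0194% of all genes did so in the lower direction, and the smallest adjusted p of a member was 0.345. At an unadjusted p below 0.05, 3 members were lower and 6 higher, and DESeq2 gave 5 members an adjusted p below 0.05. The share of all genes that passed these limits was not taken, so the counts are not read as a result about the members. No member was called at p below 0.01 once the second *let-7* KO kidney was left out, and with litter as a replicate block 2 were called, *Col16a1* and *Col4a3*.

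*Col4a3* stood at 59.3, 96.0 and 48.2 CPM in wild type and at 46.2, 28.4 and 27.7 CPM in *let-7* KO. It fell by 50.1%, with a log2 fold change of -1.004 ± 0.31 (edgeR adjusted p = 0.362), and the groups did not overlap. *Lamc1* stood at 216, 227 and 328 CPM against 182, 145 and 125 CPM, a log2 fold change of -0.78 ± 0.22 (edgeR adjusted p = 0.362). The chains that usually accompany *Col4a3* moved less, *Col4a4* with 49.8, 42.1 and 28.1 CPM against 24.3, 37.1 and 30.2 CPM (log2 fold change -0.41 ± 0.27) and *Col4a5* with 67.7, 85.4 and 78.3 CPM against 82.9, 63.1 and 39.0 CPM (-0.33 ± 0.27). The log2 ratio of *Col4a3*, *Col4a4* and *Col4a5* over *Col4a1* and *Col4a2* was -3.40 ± 0.373 in wild type and -3.58 ± 0.108 in KO, with overlap.

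*Col4a1* had 1450.0, 1051 and 1345 CPM in wild type and 1170.0, 1049 and 788 CPM in *let-7* KO, a log2 fold change of -0.37 ± 0.20 (adjusted p = 0.54). *Col4a2* had 689, 698 and 570.3 CPM against 517, 516 and 446 CPM, a log2 fold change of -0.42 ± 0.16 (adjusted p = 0.402), and here the groups did not overlap. *Col4a6*, which overlapped, gave 0.04 ± 0.61. Collagen IV thus lay below 0 in 5 of its 6 chains, with 1 chain past p below 0.01.

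*Lama1* had 57.3, 57.7 and 72.7 CPM in wild type against 39.8, 55.2 and 52.1 CPM in *let-7* KO, and *Lama5* had 50.4, 99.5 and 73.0 CPM against 53.5, 33.1 and 72.4 CPM. Their log2 fold changes were -0.37 ± 0.21 (adjusted p = 0.547) and -0.50 ± 0.32 (adjusted p = 0.593). *Lamb1* had 369, 263 and 379 CPM against 302, 362 and 358 CPM, and *Lamb2* had 96.7, 55.0 and 85.2 CPM against 99.4, 68.1 and 90.5 CPM, so that both beta chains overlapped between the groups, with log2 fold changes of -0.0023 ± 0.18 and 0.11 ± 0.24. *Lama2*, lower in the other model, had 27.5, 24.8 and 19.9 CPM against 26.9, 34.9 and 25.3 CPM, a log2 fold change of 0.25 ± 0.25, and *Lama4* gave -0.05 ± 0.21.

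Outside the basement membrane, *Col16a1*, a fibril-associated collagen, stood at 66.5, 43.0 and 49.6 CPM in wild type and at 87.3, 125 and 98.9 CPM in *let-7* KO. It was 93.1% higher, with a log2 fold change of 0.95 ± 0.22 (edgeR adjusted p = 0.345). *Col23a1*, a transmembrane collagen, stood at 20.9, 23.2 and 26.9 CPM against 52.8, 38.8 and 33.2 CPM, a log2 fold change of 0.80 ± 0.25 (edgeR adjusted p = 0.366). *Col5a1*, a chain of the collagen that starts type I fibrils, stood at 149, 157 and 107 CPM against 171, 276 and 228 CPM, a log2 fold change of 0.69 ± 0.22 (edgeR adjusted p = 0.366). In all 3 genes each *let-7* KO kidney lay above each wild-type kidney.

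*Col1a1* missed the threshold here and passed it with RLE or upper-quartile factors, in DESeq2, under either other count filter and in 1 fit of the 12 kidneys. It had 775, 576 and 533 CPM in wild type and 805, 1165 and 962 CPM in *let-7* KO, without overlap, and a log2 fold change of 0.62 ± 0.20 (edgeR adjusted p = 0.369). *Col1a2*, its partner chain, gave 0.11 ± 0.19, and *Col3a1* gave -0.04 ± 0.26. The log2 ratio of *Col1a1* over *Col1a2* was -0.29, -0.35 and -0.28 in wild type and -0.19, 0.36 and 0.41 in *let-7* KO. No kidney overlapped, although the first *let-7* KO kidney stood near its wild-type littermates.

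**Figure D3:**
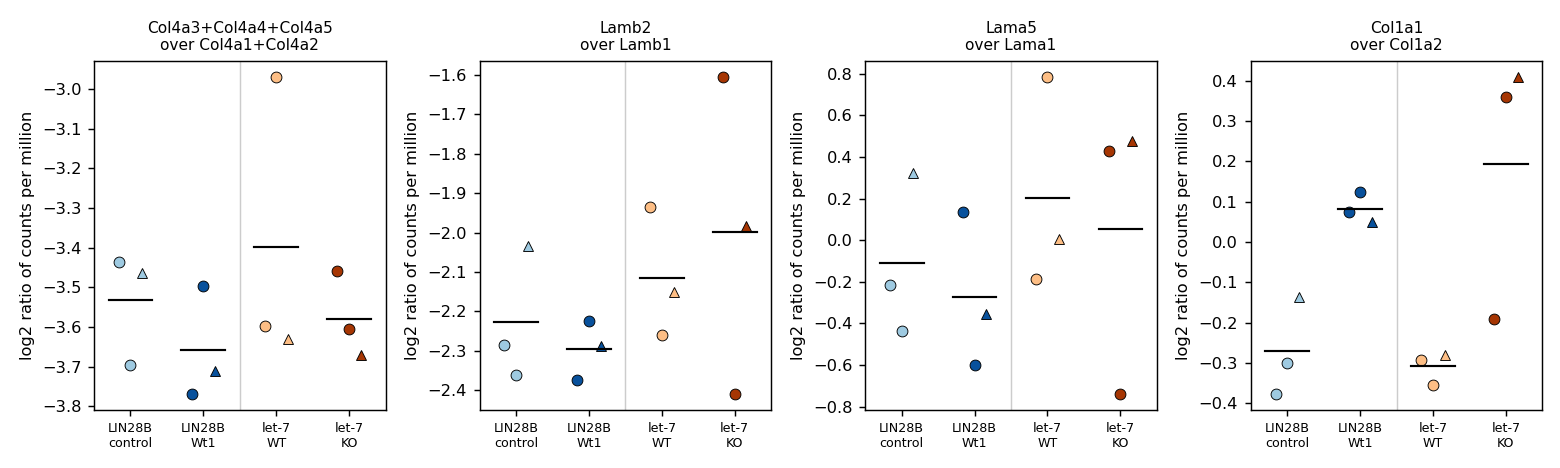
Log2 ratio of CPM between chains in each of the 12 kidneys, with circles for the first litter of each group, triangles for the second and bars for the mean of 3 kidneys. The groups of each model overlap in the first 3 panels and do not overlap for *Col1a1* over *Col1a2*.

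Further members with large fold changes in *let-7* KO were thinly counted or varied between kidneys. *Col9a3* had 1.499, 1.38 and 2.83 CPM in wild type against 5.36, 11.9 and 2.98 CPM (log2 fold change 1.81 ± 0.65, adjusted p = 0.379), and *Col9a1* had 0.204, 0.698 and 1.54 CPM against 5.11, 2.14 and 1.03 CPM (1.75 ± 1.03, adjusted p = 0.569). *Col24a1* had 57, 0 and 41 counts against 101, 237 and 56 counts (adjusted p = 0.598), and *Col11a2* had 13, 1 and 40 counts against 7, 0 and 83 counts (adjusted p = 0.839). *Col9a2*, not among these by size, had 5.33, 7.97 and 4.77 CPM against 10.5, 13.1 and 14.4 CPM (adjusted p = 0.377), so that 2 of the 3 type IX chains did not overlap.

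Over the 17 basement membrane members the median log2 fold change in *let-7* KO was -0.33, with 14 below 0 (13 with RLE or upper-quartile factors or in DESeq2), and over the other 32 collagens tested it was 0.18, with 23 above 0, beside a median of -0.02 over all 15500 genes tested. All 3 *let-7* KO kidneys lay above all 3 wild-type kidneys in 7 members, against 7.87% of all genes, and below in 4 members, against 8.79% of all genes. All 7 were collagens outside the basement membrane, and all 4, *Col4a2*, *Col4a3*, *Lama1* and *Lamc1*, were basement membrane genes. Of the 49 members tested, 14.3% lay above and 8.16% below. The share below is near that of all genes, so the number of members that lay below is not read as a result. Of 96 partner genes tested, 1 was lower and 2 were higher at p below 0.01, against 1.63% and 1.10% of all genes. *Itga1* (log2 fold change -0.69) was lower and *Fbn2* (0.75), a microfibril protein, and the metalloproteinase *Mmp23* (1.04) were higher.

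**Figure D4:**
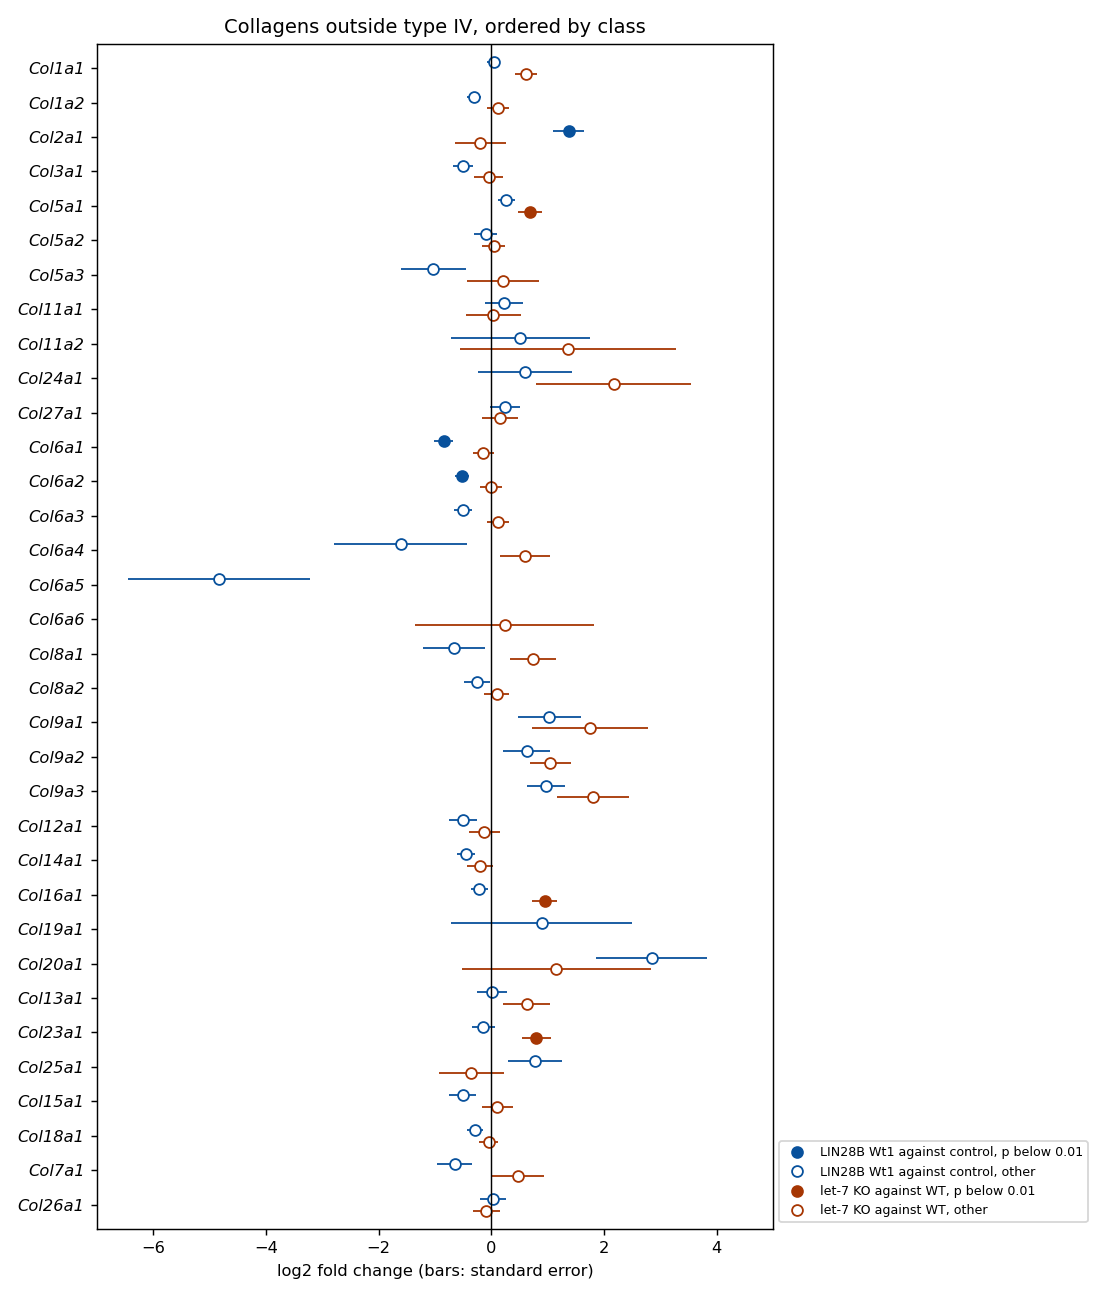
Log2 fold change of the collagens outside type IV in *LIN28B* Wt1 against control kidneys (blue) and in *let-7* KO against wild-type kidneys (brown), ordered by class from fibrillar to other types, with standard errors as bars and filled points where p was below 0.01. Filled points are *Col2a1*, *Col6a1* and *Col6a2* in blue and *Col5a1*, *Col16a1* and *Col23a1* in brown; wide bars belong to thinly counted genes such as *Col6a5*.

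Most marker sums overlapped between *let-7* KO and wild-type kidneys. This held for endothelial (456 to 586 against 478 to 556 CPM), stromal (413 to 638 against 449 to 559 CPM) and smooth muscle markers (828 to 1274 against 614 to 1078 CPM). Ureteric tip and collecting duct sums overlapped too (2092 to 2695 against 1254 to 2619 CPM), with *Calb1* (log2 fold change -0.88) lower at p below 0.01. Podocyte markers summed to 2569 to 3157 CPM in KO and 1591 to 2223 CPM in wild type, with *Cdkn1c* higher at p below 0.01, while the 7 genes had a median of -0.26 on the log2 scale. Cap mesenchyme sums lay above wild type (54.5 to 85.0 against 35.1 to 37.3 CPM), and immune (28.6 to 44.7 against 49.7 to 59.8 CPM) and proximal tubule markers (1974 to 2325 against 2434 to 2889 CPM) lay below. The part of these sums in the changes of the members was not tested.

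Transcript length moved with the fold changes in the *let-7* model, and collagens and laminins are long. The median member transcript was 6047 bases and 43 of 54 members reached 5000 bases, against a median of 3011 bases and 19.8% over all genes tested. In *let-7* KO, all genes with transcripts under 2000 bases had a median log2 fold change of 0.23 and those of 5000 bases or more a median of -0.13. The corresponding medians for *LIN28B* Wt1 were 0.13 and -0.05. With an offset that removed each kidney's trend on length, the basement membrane median in *LIN28B* Wt1 was -0.68, with all 17 members still below 0. In *let-7* KO it was -0.22, with 11 members below 0, and *Col4a3* lost its call, with a log2 fold change of -0.94 that was close to the value without the offset, while *Lamc1*, *Col16a1*, *Col23a1* and *Col5a1* kept theirs and *Col1a1* gained one.

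**Figure D5:**
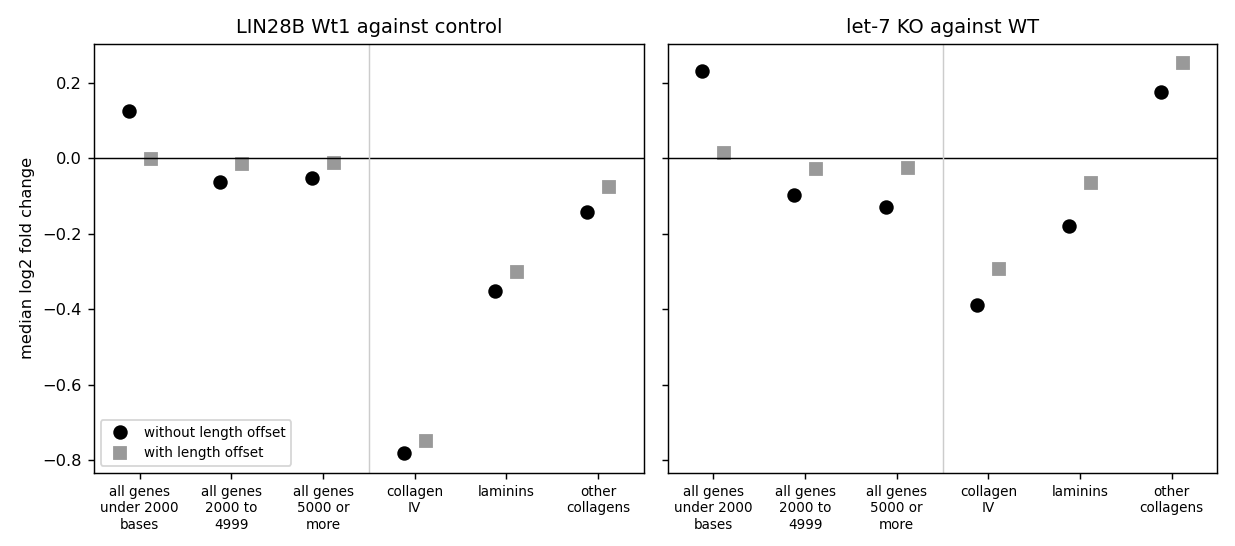
Median log2 fold change in *LIN28B* Wt1 against control (left) and *let-7* KO against wild type (right) of all genes in 3 classes of transcript length, and of collagen IV, laminins and other collagens, without (black circles) and with (grey squares) an offset for transcript length. The collagen IV median stays at -0.78 and -0.75 on the left and moves from -0.39 to -0.29 on the right.

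A direct test of the difference between the 2 effects was made in 1 fit of the 12 kidneys. At p below 0.01, 3 of 54 members had a more negative effect in *LIN28B* Wt1 than in *let-7* KO, against 1.04% of all 16598 genes tested, and 0 members had a more positive one in this edgeR fit, against 0.512%. DESeq2 and edgeR without the count filter each called 2 in that direction, *Col2a1* and *Col19a1*, and a filter of 1 CPM called *Col2a1*. Without the second *let-7* KO kidney 1 member was called, and without the third *LIN28B* Wt1 or the first *let-7* wild-type kidney 6. The 3 more negative members were *Col16a1*, with a log2 difference of -1.19 ± 0.26 (adjusted p = 0.314), *Lama2*, with -1.08 ± 0.32 (adjusted p = 0.547), and *Col23a1*, with -0.96 ± 0.32 (adjusted p = 0.610). No adjusted p of a member was below 0.05, the smallest being 0.314. At an unadjusted p below 0.05, 10 members differed in the negative and 3 in the positive direction, and DESeq2 gave 1 member, *Col16a1*, an adjusted p below 0.05. For these limits, too, the share of all genes was not taken. *Col2a1* (1.55 ± 0.55, adjusted p = 0.672), *Col6a1* (-0.73 ± 0.26, adjusted p = 0.672) and *Col1a1* (-0.60 ± 0.24, adjusted p = 0.715) missed the threshold. With litter as a replicate block *Col23a1* lost its call and *Col6a1* and *Col8a1* gained one.

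For collagen IV the log2 differences between the models were -0.42 ± 0.23 for *Col4a1*, -0.33 ± 0.19 for *Col4a2*, -0.16 ± 0.37 for *Col4a3*, -0.31 ± 0.44 for *Col4a4*, -0.47 ± 0.45 for *Col4a5* and -1.48 ± 0.83 for *Col4a6*. All 6 were negative and had p above 0.05 in this fit. With the transcript-length offset, *Col4a1* (-0.48) and *Col4a2* (-0.39) had p below 0.05. *Lama1*, *Lama5* and *Lamc1* were positive, at 0.32 ± 0.26, 0.30 ± 0.40 and 0.29 ± 0.31, and *Lama4* (-0.37 ± 0.28), *Lamb1* (-0.31 ± 0.23), *Lamb2* (-0.48 ± 0.28), *Col1a2* (-0.44 ± 0.22) and *Col3a1* (-0.47 ± 0.34) negative, each with p above 0.05 in this fit. With the length offset *Col1a2* and *Lamb2*, and with litter as a replicate block *Col1a2*, had p below 0.05. The largest fitted differences belonged to genes with no counts in several kidneys, for which a fitted fold is no measure of size. *Col19a1* had 45, 9 and 3 counts in *LIN28B* controls, 33, 74 and 0 in *LIN28B* Wt1, 45, 70 and 5 in *let-7* wild type and 0 in each *let-7* KO kidney. *Col22a1* had 4, 80 and 97 counts in *LIN28B* controls, 9, 0 and 0 in *LIN28B* Wt1, 0 in each *let-7* wild type and 0, 0 and 12 in *let-7* KO. *Col17a1*, between 0 and 90 counts, was as uneven.

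The 2 control groups differ in strain, litters and experiment together. At p below 0.01, 6 of 54 members were lower in *let-7* wild type than in *LIN28B* controls, against 1.37% of all 16598 genes tested, and 0 members were higher in this edgeR fit, against 1.95%. Among the 6 was *Col6a5*, which was kept as a member only through its counts in the *LIN28B* controls. DESeq2 and an edgeR fit of the 6 control kidneys alone each called 2 members higher, and the length offset 1. At an unadjusted p below 0.05, 9 were lower and 3 higher, with no share of all genes taken at that limit. Without the first *let-7* wild-type kidney 1 member was called. *Col16a1*, at 88.2, 103 and 90.4 CPM in *LIN28B* controls, had a log2 difference of -0.83 ± 0.19 (edgeR adjusted p = 0.0683). The *let-7* KO kidneys, at 87.3 to 125 CPM, thus reached the level of the *LIN28B* controls for this gene. *Lama4*, at 110, 106 and 102 CPM in *LIN28B* controls and 58.9, 55.0 and 81.2 CPM in *let-7* wild type, had a log2 difference of -0.70 ± 0.20 (adjusted p = 0.168).

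*Col13a1*, a transmembrane collagen, was at 11.8, 11.8 and 16.7 CPM against 4.94, 6.39 and 7.04 CPM, a log2 difference of -1.13 ± 0.33 (adjusted p = 0.197). *Col9a1* (-2.82 ± 0.81, adjusted p = 0.18) and *Col9a3* (-1.56 ± 0.51, adjusted p = 0.282) were lower too. *Col6a5*, also called, had 0 counts in each *let-7* wild-type kidney. It passed the count minimum only through the *LIN28B* control kidneys, so its lower level in the other groups follows from that filter and is not read as a result. Collagen IV differed little between the control groups, with *Col4a1* at 0.11 ± 0.16, *Col4a2* at 0.02 ± 0.13 and *Col4a3* at 0.25 ± 0.26. *Col6a6* had 2, 0 and 8 counts in *LIN28B* controls and 0, 101 and 83 in *let-7* wild type (adjusted p = 0.582). It passed the count minimum only through kidneys of the *let-7* experiment, so its higher level there follows from that filter and is not read as a result. *Col20a1* (13, 7 and 7 against 8, 1 and 122 counts) and *Col28a1* (31, 3 and 0 against 0 in each) were too uneven to compare. All 11 fibrillar collagens had a log2 difference below 0, and 10 of 11 with litter as a replicate block, the lowest being -1.33 for *Col24a1*. None of them was called at p below 0.01. Of all genes tested, 51.4% lay below 0, and of those with transcripts of 5000 bases or more 60.6% did.

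Matches to the *let-7* seed were looked up in the 3′ UTRs of the members because Lin28 proteins and the knockout both act on *let-7*. The 3 miRNAs removed in *let-7* KO share one seed, shown in capitals (bases 2 to 8; RefSeq, GRCm38.p6). Their mature forms lie on the minus strand at chr13:48538239-48538260 (let-7a), chr13:48536078-48536099 (let-7d) and chr13:48537889-48537910 (let-7f).
let-7a-5p: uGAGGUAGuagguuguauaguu
let-7d-5p: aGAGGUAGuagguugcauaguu
let-7f-5p: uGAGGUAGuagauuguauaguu
A match was CTACCTC, its extension CTACCTCA, or TACCTCA, in the longest annotated 3′ UTR (GENCODE M21, GRCm38). CTACCTC occurred in 9 of the 50 members tested in the *LIN28B* model, or 18%, against 10.4% of all genes tested with a 3′ UTR, and any of these matches in 16 of 50, or 32%, against 16.6%. No laminin had a match. Among collagen IV chains, *Col4a1*, *Col4a2* and *Col4a5* had TACCTCA and none had CTACCTC.

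The full match CTACCTCA stood in 3 fibrillar collagens, and CTACCTC in *Col1a1* and in *Col23a1*, the member with a match that was called higher in *let-7* KO. These sites are shown with their flanks, 5′ to 3′, matches in capitals. They start at base 415 of 882 of the 3′ UTR in *Col1a2*, 403 of 959 in *Col3a1*, 976 of 1763 in *Col5a2*, 786 of 1423 in *Col1a1* and 2330 of 3852 in *Col23a1*.
Col1a2: aacttccaaaggtttgaaCTACCTCAagac
Col3a1: tcctcctccctatgttaaCTACCTCAactg
Col5a2: aacatttcttagcatgacCTACCTCAtctc
Col1a1: caattgtgttgctgaaagaCTACCTCgttc
Col23a1: cacagctgatgtcaagtccCTACCTCtgtc
In *LIN28B* Wt1 kidneys, the log2 fold changes of the genes with the full match were -0.31 for *Col1a2*, -0.50 for *Col3a1* and -0.10 for *Col5a2*. The *let-7* KO values were 0.11, -0.04 and 0.04 for the same genes. The 9 members with CTACCTC had a median log2 fold change of -0.10 in *LIN28B* Wt1, against -0.41 for members without, and 0.11 in *let-7* KO, against 0.02 for members without. All 9 were collagens outside the basement membrane, so the members without CTACCTC included all 17 basement membrane genes. The collagens outside the basement membrane, with or without CTACCTC, had medians of -0.14 (*LIN28B* model) and 0.18 (*let-7* model). A part of the site beyond this division of the members was not tested. Among all genes with a 3′ UTR, those with CTACCTC had a median of 0.0046 for *LIN28B* Wt1 and of -0.07 for *let-7* KO, and those without it had -0.02 and -0.03.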

How the data were processed

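Whole kidneys of 12 mice, 3 per group, had been sequenced (SMARTer Ultra Low kit, HiSeq). The values are raw read counts per gene symbol that the authors deposited, 1 file per kidney, and per the submitters' processing notes the tools were cutadapt, TopHat2 2.0.9, Bowtie2, SAMtools 0.1.19 and HTSeq on mm10. The annotation and strand setting are not given in the sources used here. No column of the files was left unused. Samples were grouped by the genotype and strain labels. Separate edgeR 4.0.16 fits (R 4.3.3) were made for the 2 models, with TMM factors, filterByExpr and the quasi-likelihood test, and calls were made at an unadjusted p below 0.01 with Benjamini-Hochberg adjusted p values over all genes tested beside them. The difference between the effects and the comparison of the control groups came from 1 fit of the 12 kidneys. The fits were tested on simulated data. Standard errors are the log2 fold change over the square root of the F statistic. Gene models and transcript lengths came from GENCODE M21 on GRCm38, to which 98.3% of symbols matched.

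Precision is limited by 3 kidneys a group. Whether the kidneys of a group came from separate animals rests on the labels, and p values measure the spread between them. Litter numbers in the labels mark littermates, so litter was tried as a replicate block. Deviations from group means of kidneys of the same litter across genotypes had a mean correlation of -0.0854 in the *LIN28B* and -0.0223 in the *let-7* experiment. No 2 libraries of a group were alike within sampling noise. Members named were those at p below 0.01, a fixed set of collagen IV, laminin and collagen I and III chains, and the 4 largest fold changes among the rest. The values of 1 laminin are not reported here. The members and lists were chosen with earlier results of these data known. Alternatives were RLE and upper-quartile factors, DESeq2 1.42.0, other count filters, the litter block, an adjusted threshold, a transcript-length offset, other sets of kidneys in the fit and leaving out each kidney.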

Additional observations from a re-analysis of the deposited data

How the results depend on the processing

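Of the 7 members called in *LIN28B* Wt1 kidneys, DESeq2 gave 12, the adjusted threshold 3, and leaving out 1 kidney 5 to 19, the highest without the third *LIN28B* Wt1 kidney. *Col2a1*, *Col4a1*, *Col4a2*, *Col4a3* and *Col6a1* kept their calls under every alternative at p below 0.01. The replicate block by litter gave the same 7. Of the 5 members called in *let-7* KO, DESeq2 gave 8, 1 fit of the 12 kidneys 9, the adjusted threshold 0, and the replicate block 2, *Col16a1* and *Col4a3*. Leaving out 1 kidney gave 0 to 5, with 0 without the second *let-7* KO kidney. For the 3 members that differed between the effects, DESeq2 gave 6, the adjusted threshold 0 and leaving out 1 kidney 1 to 6, lowest without the second *let-7* KO kidney and highest without the third *LIN28B* Wt1 or the first *let-7* wild-type kidney. The replicate block gave 4, of which 2 were shared. For the 6 of the control groups, DESeq2 gave 11, the adjusted threshold 0, the replicate block 5 and leaving out 1 kidney 1 to 7, lowest without the first *let-7* wild-type kidney. These counts were not set beside the share of all genes called under the same alternative, and the causes were not tested.

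Some log2 fold changes, none of them called, changed sign. All were near 0 except that of *Col11a2*, which was 1.36 ± 1.91 in *let-7* KO. In *LIN28B* Wt1, leaving out 1 kidney gave -0.131 to 0.0742 for *Lama1* and -0.0277 to 0.115 for *Col1a1*. In *let-7* KO it gave -0.269 to 0.725 for *Col4a6*, -0.154 to 0.134 for *Lama4*, -0.145 to 0.0842 for *Lamb1*, -0.0895 to 0.282 for *Lamb2*, -0.00629 to 0.284 for *Col1a2*, -0.279 to 0.191 for *Col3a1* and -2.34 to 2.69 for *Col11a2*. The length offset gave 0.0706 for *Lama4*, 0.135 for *Lamb1* and 0.0624 for *Col3a1*. *Lamb1* was 0.0251 with RLE factors, 0.0359 with upper-quartile factors, 0.025 in DESeq2 and 0.0019 with the replicate block, which gave -0.0733 for *Col11a2*. With 3 kidneys a group, small changes and genes of few counts were not resolved.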
